A study of Arabidopsis thaliana with 12 samples.

Results

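The top of chromosome 4 of Arabidopsis thaliana carries FRIGIDA (FRI, locus AT4G00650), and the members described here are the probe sets of the genes around it. A probe set is the group of short oligonucleotides that measures 1 transcript on the array. Members were all probe sets, controls left out, that the array annotation pairs with exactly 1 gene whose locus name lies from AT4G00005 to AT4G02999. Locus names run along the chromosome, so this rule picks a block of neighbouring genes. The rule uses no measured value, but it was chosen with earlier results of these data known. It found 113 probe sets for 106 loci, of 3794 probe sets with 1 gene and of 8247 probe sets that are not controls; the gene table used for names lists 409 genes in the block, 353 of them protein coding. Of the 113, 81 probe sets of 76 loci had a mean above the 25th percentile of all probe sets (3.56 on the log2 scale) and were tested. The other 32 lay at or below it. Another 2 probe sets that the annotation gives to a locus of the block together with other genes were left out.

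FRI encodes a plant-specific activator that raises transcription of FLOWERING LOCUS C (FLC), a MADS-box gene whose product represses flowering until winter cold silences it. The common laboratory strain Col-0 carries an inactive FRI and flowers early, and crossing in an active allele from another strain makes it flower late through FLC. An introgressed allele comes with a stretch of donor chromosome on both sides, so a plant with a donor FRI allele can also carry donor alleles of the genes next to it.

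Shoot apices of 4 genotypes were collected on 3 days and each genotype and day was hybridised to 1 array, 12 arrays in all. All lines have the Col-0 background. At 21 °C, plants had a short photoperiod (9 h light, 15 h dark) for their first 30 days and then a long one (16 h light, 8 h dark), and apices were taken 0, 2 and 4 days after that change. Col-0 itself (friCol-FLC) has the inactive FRI and an intact FLC. The line friCol-flc3 has that FRI allele and the deletion allele flc-3. FRISf2-FLC has an intact FLC and the active FRI of the accession San Feliu-2 (Sf-2), brought in by introgression, and FRISf2-flc3 has the Sf-2 allele with flc-3. The labels give neither the length of the introgressed Sf-2 stretch, the number of plants in a sample nor the hour of sampling, and no plants were kept in short days past day 0, so long days cannot be told apart from age or harvest occasion.

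With 1 array per genotype and day there were no replicates in the usual sense. The FRI comparison set 6 arrays with the Sf-2 allele against 6 with the Col allele, as 6 pairs that share FLC allele and day, and each standard error (SE) is what a model with genotype and day leaves unexplained. Array medians lay within 0.0604 of each other, and all levels below are deposited log2 signals, so a difference of 1 is a doubling. The FRISf2-flc3 day 2 array stood apart, with a residual SD of 0.165 against 0.0969 to 0.132 for the other 11, and results that rest on it are given without it too. No probe set was paired with FRI or FLC alone, so the labels were not checked on the genes they name. Of 12 shoot apex marker genes 1 had a probe set, UFO, with a mean of 3.59 (3.36 to 4.07), near the filter; RCA, a leaf gene for Rubisco activase, had a mean of 10.80 (10.40 to 11.24), and none of 6 root markers had a probe set. In such bulk tissue fewer cells of a type and less RNA per cell cannot be told apart. An oligonucleotide array also cannot tell a lower transcript level from a sequence difference under the probes, and how well the probes match Sf-2 sequence was not tested. Most members are known in the annotation by locus name only, and a role is given below only where it pairs a symbol with the locus.

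For the FRI allele, a larger share of the genes around FRI than of all probe sets lay under an unadjusted p of 0.05, and AT4G01590 had the largest difference of the 6185 probe sets tested. With the Sf-2 allele its level was 4.06-fold lower. It was the member called at an adjusted p under 0.05, 1 of 81 (1.23%), where 13 of 6185 probe sets passed (0.21%), by limma with Benjamini-Hochberg adjustment over all 6185. Unadjusted, 24 of 81 members (29.6%) lay under 0.05, against 8.6% of all probe sets. Of the 24, 17 were lower with Sf-2 (21%, against 4.33%) and 7 higher (8.64%, against 4.27%). They include AT4G00870, AT4G00890 and AT4G01130, which passed the filter only through the allele with the higher mean. No count without these members is given. The median size of the FRI difference over the 81 was 0.10, against 0.06 over all 6185. Without the FRISf2-flc3 day 2 array 28 members lay under 0.05, where all probe sets gave 11.9%. With the 6 pairs as a block, a fit chosen after the data were seen, 3 members passed (AT4G01590, AT4G00780 and AT4G02360), where 15 of 6185 probe sets did (0.243%), and 21 members lay under an unadjusted 0.05, against 7.95%.

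AT4G01590 (probe set 13935_at) measured 5.28, 6.17 and 5.94 on days 0, 2 and 4 in friCol-FLC and 5.72, 5.75 and 5.70 in friCol-flc3. With the Sf-2 allele it measured 3.98, 3.74 and 3.69 in FRISf2-FLC and 3.81, 3.39 and 3.83 in FRISf2-flc3. All 6 Sf-2 arrays lay below all 6 Col arrays, at levels close to the filter value of 3.56. The means were 3.74 ± 0.198 with Sf-2 and 5.76 ± 0.297 with Col (SD, n = 6 arrays each), and the fitted difference was -2.02 ± 0.14 (SE, log2; 95% interval -2.33 to -1.72; limma adjusted p = 1.96e-05). The intact and deleted FLC backgrounds share no array, and each gave the difference on its own. With FLC it was -1.997 ± 0.198 (limma adjusted p = 0.000701; 11 of 6185 probe sets passed, 0.178%, and 1 of 81 members). Without FLC it was -2.05 ± 0.198 (adjusted p = 0.000531; 5 of 6185 passed, 0.0808%, and 1 of 81 members). The interaction of FRI and FLC was 0.05 ± 0.28 (adjusted p = 0.98), with a 95% interval of -0.56 to 0.66, so a dependence on FLC smaller than that range would not have been seen. The day made no difference that passed, with 0.09 ± 0.171 on day 4 (adjusted p = 0.761). Without the FRISf2-flc3 day 2 array the FRI difference was -1.92 over both backgrounds and -1.85 without FLC, and both passed.

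AT4G01595, the next locus on the list (18518_at, named here after its values were seen), had lower means with Sf-2 in both FLC backgrounds. It measured 4.76, 4.62 and 4.40 in friCol-FLC and 4.27, 4.75 and 4.61 in friCol-flc3, against 4.18, 3.95 and 4.02 in FRISf2-FLC and 4.28, 4.33 and 4.33 in FRISf2-flc3. The groups overlapped by a little, and the difference of -0.39 ± 0.0952 did not pass (limma adjusted p = 0.24). It passed in 1 of 20 alternative settings, without the friCol-flc3 day 0 array (-0.48, adjusted p = 0.0492), and the adjusted p reached 0.504 in others.

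A member too dim for the test also separated the alleles. AT4G01920 (16829_at) measured 4.09, 3.91 and 4.16 in friCol-FLC and 4.25, 4.05 and 4.05 in friCol-flc3. The Sf-2 arrays gave 2.97, 3.13 and 3.04 in FRISf2-FLC and 2.91, 3.22 and 2.88 in FRISf2-flc3. No Sf-2 array reached the lowest Col array, and the means were 3.03 ± 0.132 and 4.08 ± 0.116 (SD, n = 6 each). The mean over all 12 arrays lay just below the filter. With no filter on level, it differed by -1.06 ± 0.0831 (limma adjusted p = 5.21e-05), by -1.004 ± 0.118 with FLC (adjusted p = 0.00219) and by -1.11 ± 0.118 without FLC (adjusted p = 0.0011). For all probe sets below the filter the share without overlap is not given here, nor is the share called with no filter. Of the 32 members below the filter, whose single values ran from 2.26 to 5.86, 1 other did not overlap between alleles. This was AT4G01890 (14038_at), at 3.41 to 3.88 over the Col arrays and 3.15 to 3.38 over the Sf-2 arrays; with no filter its difference was -0.41 ± 0.0853 (adjusted p = 0.0968).

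**Figure D1:**
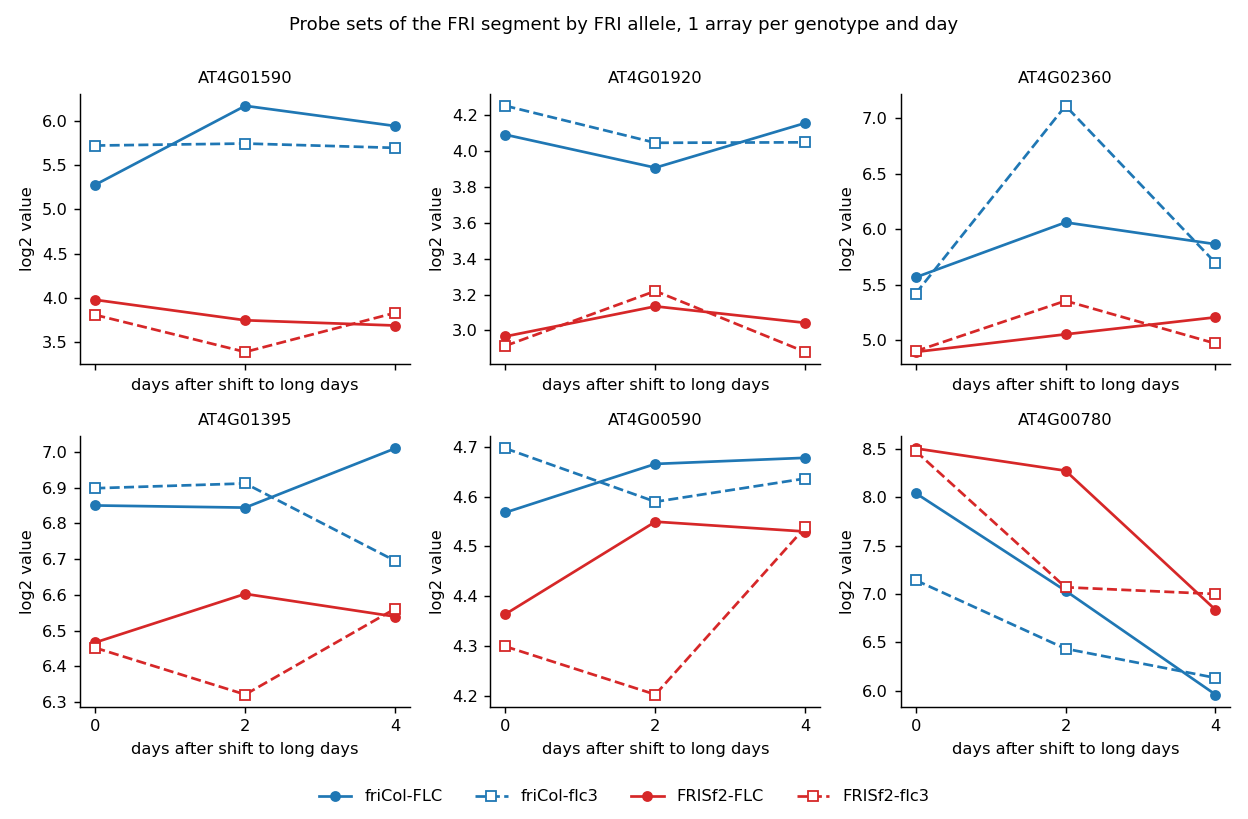
Deposited log2 signal of 6 genes around FRI (vertical axis) on days 0, 2 and 4 after the change to long days (horizontal axis), each point 1 array and each line 1 of the 4 genotypes. For AT4G01590, AT4G01920, AT4G02360, AT4G01395 and AT4G00590 the Sf-2 arrays lie below all Col arrays, whereas AT4G00780 falls with day in every genotype and lies higher with Sf-2 in each pair.

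AT4G00780 (18626_at) had the largest difference above 0 between FRI alleles and also fell most over the days. It measured 8.04, 7.03 and 5.96 in friCol-FLC, 7.14, 6.43 and 6.13 in friCol-flc3, 8.50, 8.27 and 6.84 in FRISf2-FLC and 8.48, 7.07 and 6.999 in FRISf2-flc3. Each Sf-2 array was above the Col array of the same day and FLC allele, in 6 of 6 pairs, but the 2 sets of arrays overlapped because of the fall over the days. The FRI difference was 0.90 ± 0.164 (95% interval 0.55 to 1.26; 1.87-fold; limma adjusted p = 0.0618), 0.86 with FLC and 0.95 without, and it missed the threshold. It passed without the FRISf2-flc3 day 2 array (1.04, adjusted p = 0.0193), without the friCol-flc3 day 4 array (1.01, adjusted p = 0.045) with the 6 pairs as a block (0.90 ± 0.114, adjusted p = 0.00988) and in 2 other of 21 alternative settings. The fall over the days did pass, with -0.84 ± 0.201 on day 2 (adjusted p = 0.0192) and -1.56 ± 0.201 on day 4 (adjusted p = 0.000206), and day 4 was below day 0 in 4 of 4 genotypes. The day 2 call was lost without the friCol-FLC day 0, friCol-flc3 day 2, FRISf2-flc3 day 0 or FRISf2-flc3 day 2 array (-0.64 to -0.79, adjusted p up to 0.0804). Whether the fall differs by FRI allele was tested for all probe sets, and 0 of 6185 passed for day 4 (0%) or for day 2; unadjusted, 2 of 81 members lay under 0.05 for day 4, against 1.88%, and 8 for day 2, against 6.66%.

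AT4G02360 (14573_at) was lower with Sf-2 on every array. Its Col arrays gave 5.57, 6.06 and 5.87 in friCol-FLC and 5.42, 7.11 and 5.70 in friCol-flc3; its Sf-2 arrays gave 4.90, 5.05 and 5.21 in FRISf2-FLC and 4.90, 5.36 and 4.97 in FRISf2-flc3. The 7.11 of the friCol-flc3 day 2 array stood well above the other 5 Col arrays, and the groups did not overlap with it or without it. The difference of -0.89 ± 0.17 missed the threshold (limma adjusted p = 0.0704); without that one high array it was smaller, -0.67, and passed (adjusted p = 0.00562), and without the friCol-flc3 day 0 array it was -1.004 (adjusted p = 0.0492). With the 6 pairs as a block it also passed (-0.89 ± 0.14, adjusted p = 0.0383). In all it passed in 4 of 21 alternative settings. Its neighbour AT4G02370 (13648_at) was lower with Sf-2 in 6 of 6 pairs as well, at 6.36 to 7.04 over the Col arrays and 5.96 to 6.44 over the Sf-2 arrays. The difference there was -0.36 ± 0.0942 and did not pass (adjusted p = 0.265).

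AT4G01395 and AT4G00590 showed small gaps that held on every array. The probe set 15350_at of AT4G01395 gave 6.85, 6.84 and 7.01 in friCol-FLC, 6.90, 6.91 and 6.70 in friCol-flc3, 6.47, 6.60 and 6.54 in FRISf2-FLC and 6.45, 6.32 and 6.56 in FRISf2-flc3. All Sf-2 arrays were below all Col arrays, by -0.38 ± 0.0735 in the fit (1.3-fold), which missed the threshold (limma adjusted p = 0.0727). That difference passed in 2 of 21 alternative settings, 1 of them without the friCol-flc3 day 4 array (-0.43, adjusted p = 0.045). A second probe set of the same gene, 19188_at, was lower with Sf-2 in 5 of 6 pairs by less, -0.16 ± 0.109 (adjusted p = 0.748), so the probe sets of this gene differ in the gap they show.

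AT4G00590 (16289_at) is the member nearest to FRI by locus name whose arrays did not overlap between alleles. It measured 4.57, 4.67 and 4.68 in friCol-FLC and 4.70, 4.59 and 4.64 in friCol-flc3, against 4.36, 4.55 and 4.53 in FRISf2-FLC and 4.30, 4.20 and 4.54 in FRISf2-flc3. The difference was -0.22 ± 0.0711 (adjusted p = 0.356), and the gap between the closest arrays of the 2 alleles was small beside it. Of the 10 loci on each side of FRI, 4 had a probe set. The others were AT4G00600 (15542_r_at), higher in 6 of 6 pairs with a difference of 0.17 ± 0.0756, AT4G00700 (19555_at), lower in 5 of 6 with -0.14 ± 0.0665, and AT4G00560, which stayed between 3.27 and 3.60 and was not tested. Neither AT4G00600 nor AT4G00700 passed (adjusted p = 0.564 and 0.581).

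In all, 4 of the 81 tested members had 6 Sf-2 arrays that did not overlap the 6 Col arrays (4.94%), against 0.323% of all probe sets, and all 4 lay below (0.226% of all): AT4G01590, AT4G02360, AT4G01395 and AT4G00590. A looser count gave the same side. In 14 members (17.3%, against 5.17%) the 6 pairs had 1 sign, 12 lower with Sf-2 (14.8%, against 2.67%) and 2 higher (2.47%, against 2.51%). Besides those described, the 12 held AT4G01130 at -0.35, AT4G02200 (15040_g_at) at -0.21, AT4G00030 at -0.19, AT4G01200 and AT4G01960 at -0.18 each, AT4G00040 at -0.12 and NET1C, an actin-binding protein gene, at -0.11. None of these 7 passed the adjusted threshold (adjusted p from 0.323 to 0.70). AT4G01130, NET1C and AT4G00870 had Sf-2 means below the filter value, 3.43, 3.54 and 3.31, and so were tested only because their Col arrays were higher; AT4G00890 was the reverse case, with a Col mean of 3.51. Of the 81 members, 30 had a difference above 0. Without the FRISf2-flc3 day 2 array 5 members did not overlap, and 0.695% of all probe sets.

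**Figure D2:**
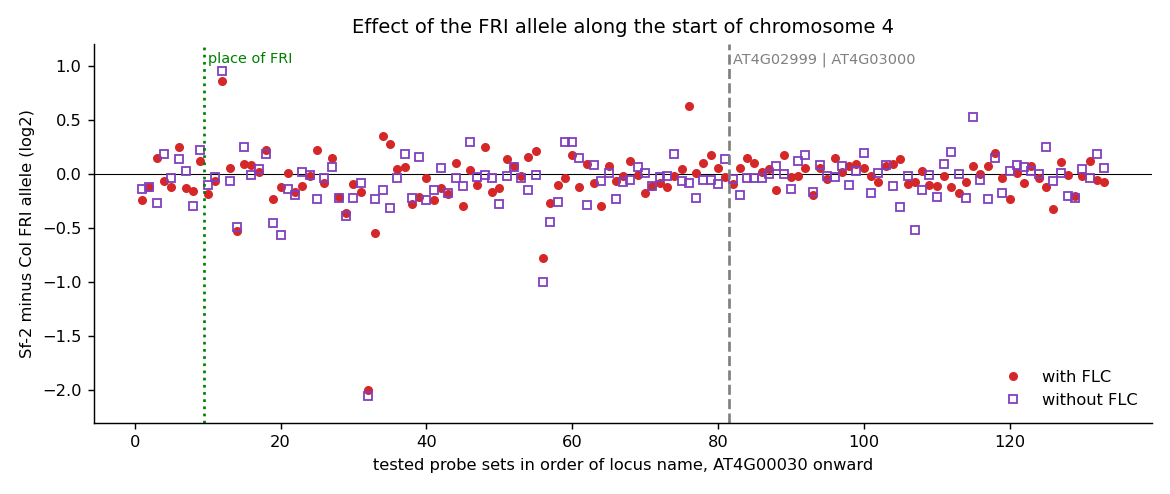
FRI difference (Sf-2 minus Col, log2, vertical axis) of each tested probe set in locus order at the start of chromosome 4 (horizontal axis), with points for plants with FLC and plants without FLC. The points of AT4G01590 sit at -1.997 and -2.05, and large differences thin out toward AT4G02999.

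The differences were not spread evenly over the block. Among loci AT4G00005 to AT4G00999, 6 of 15 tested members lay under an unadjusted p of 0.05 (40%), and among AT4G01000 to AT4G01999, 11 of 28 (39.3%). The 6 include AT4G00870 and AT4G00890 and the 11 include AT4G01130, which passed the filter only through 1 allele. Among AT4G02000 to AT4G02999 it was 7 of 38 (18.4%), and past the block, among AT4G03000 to AT4G05999, 1 of 28 (3.57%). Within the third stretch it was 6 of 18 members up to AT4G02499 (33.3%), 1 of 20 from AT4G02500 on (5%) and 0 of 15 from AT4G03000 to AT4G03499. At the other end, 1 of 7 from AT4G00000 to AT4G00499 (14.3%) and 5 of 8 from AT4G00500 to AT4G00999 (62.5%), the stretch that holds FRI, lay under it. These finer stretches hold few members each and are given as counts only. Elsewhere on chromosome 4 the share was between 3.86% and 8.33%, and on the other chromosomes between 5.7% and 6.78%. Without the FRISf2-flc3 day 2 array the 4 wider stretches gave 53.3%, 42.9%, 21.1% and 14.3%.

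For the FLC allele few members of the block lay under the same threshold. None of the 81 members passed for FLC over both FRI alleles, where 3 of 6185 did (0.0485%). Unadjusted, 3 members lay under 0.05 (3.7%), against 7.19% of all. In the same 3 stretches of the block, 1 of 15, 1 of 28 and 1 of 38 lay under 0.05 for FLC (6.67%, 3.57% and 2.63%). With 1 member in each, these shares cannot show a trend along the block. The median size of the FLC difference was 0.06 over members and 0.06 over all probe sets.

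**Figure D3:**
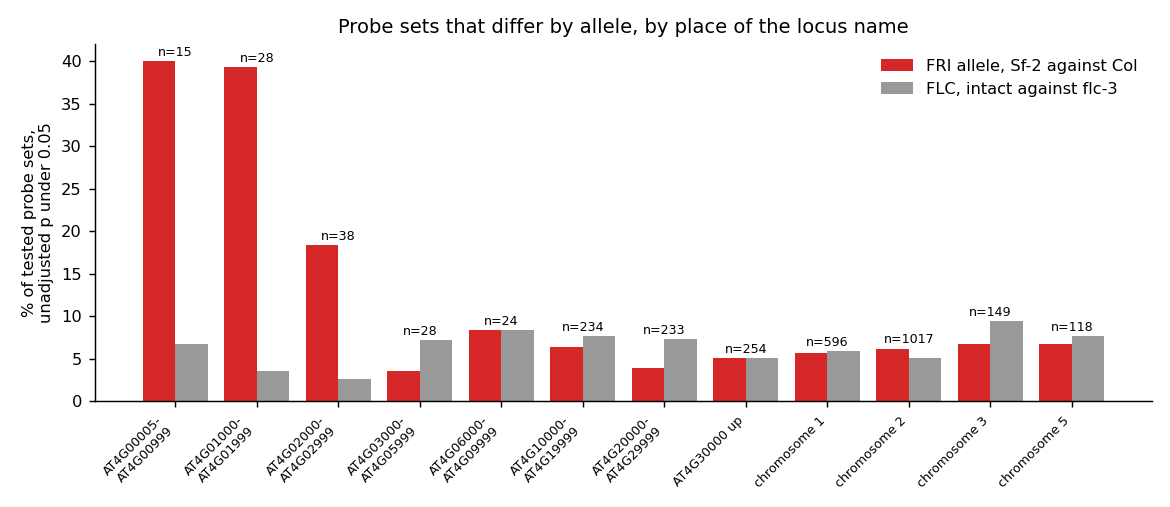
Share of tested probe sets with an unadjusted p under 0.05 (percent, vertical axis) by stretch of chromosome 4 and by other chromosome (horizontal axis), with bars for the FRI comparison and for the FLC comparison. The FRI bars reach 40%, 39.3% and 18.4% in the 3 stretches around FRI and stay at 8.33% or less elsewhere. The 40% bar counts AT4G00870 and AT4G00890, and the 39.3% bar counts AT4G01130. These members passed the filter only through the allele with the higher mean, and shares without them are not given.

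The FRI differences with and without FLC come from separate arrays, so they could be set against each other gene by gene. Over the 81 members they had a Pearson correlation of 0.784 and a Spearman correlation of 0.405, and over the 2655 other probe sets with 1 gene a Pearson correlation of 0.014. Much of the first value came from few genes: it was 0.59 without AT4G01590 and 0.347 (78 members, Spearman 0.334) without AT4G01590, AT4G00780 and AT4G02360. Genes on one stretch share their arrays and so are not independent points, and the values are descriptive. By stretch the correlation was 0.872, 0.849 and 0.518 in the block and 0.113 for AT4G03000 to AT4G05999. The block stretches hold AT4G00780, AT4G01590 and AT4G02360 in that order, 1 in each, and values by stretch without these genes are not given. Without the FRISf2-flc3 day 2 array it was 0.783 over the members and 0.142 over the others. The FLC differences with active and with inactive FRI, set against each other likewise, gave -0.005 over the members.

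**Figure D4:**
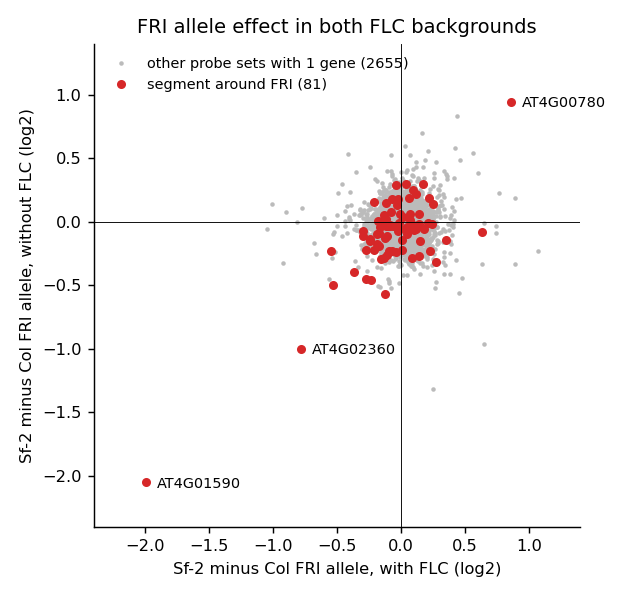
FRI difference with FLC (horizontal axis) against FRI difference without FLC (vertical axis), both Sf-2 minus Col on the log2 scale, for the 81 tested members and for the other probe sets with 1 gene. AT4G01590, AT4G02360 and AT4G00780 lie far from the centre, at -1.997, -0.78 and 0.86 with FLC, and most other members lie in the central cloud.

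Sorted by an unadjusted p under 0.05 in each FLC background, 4 members followed the FRI allele in both: AT4G01590, AT4G02360, AT4G01395 and AT4G00780, each with 1 sign. Another 6 did so with FLC only and 13 without FLC only, and 58 in neither. Over all 6185 probe sets the first 3 counts were 77, 348 and 479. Taken singly, 10 members lay under 0.05 with FLC (12.3%, against 6.87%) and 17 without FLC (21%, against 8.99%). Appearing in 1 background only does not show that the backgrounds differ, and the interaction was called for 0 of 81 members and 2 of 6185 probe sets (0.0323%). Unadjusted, 7 members lay under 0.05 for it, against 7.26%. The member with the lowest interaction p was AT4G02850 (14497_at, named after its values were seen), at 7.80, 8.10 and 7.70 in FRISf2-FLC, 7.27, 7.22 and 7.22 in friCol-FLC, 7.57, 7.63 and 6.71 in friCol-flc3 and 7.38, 7.31 and 6.97 in FRISf2-flc3. It was highest where active FRI and intact FLC met, with an interaction of 0.71 ± 0.217 that did not pass (limma adjusted p = 0.503).

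AT4G00870 (20528_at, also named after its values were seen) had its widest gap between alleles on day 4. It measured 3.50, 3.57 and 4.11 in friCol-FLC and 3.41, 3.44 and 4.90 in friCol-flc3, whereas the Sf-2 arrays stayed between 3.12 and 3.56 on all days. The Col arrays of day 4 stood above all others. With a mean of 3.56 over the 12 arrays it passed the filter only through its Col arrays, so its differences are given without a test: -0.51 between FRI alleles over the days, and -0.30 without the friCol-flc3 day 4 array.

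More members passed the adjusted threshold for the day than for the FRI allele. On day 4, 14 of 81 members had passed against day 0 (17.3%), close to the 18.3% of all probe sets, with 12 up and 2 down where all probe sets gave 8.78% up and 9.49% down. On day 2, 7 members had passed (8.64%, against 10.7%), 5 up and 2 down (4.8% and 5.89% over all). Between day 2 and day 4 only AT4G01960 passed, with 0.34 (adjusted p = 0.0407; 4.35% of all), and the call was lost when any of 11 of the 12 arrays was left out (at least 0.30). Day 4 was above day 0 in all 4 genotypes for 30 members (37%, against 25.7%) and below in all 4 for 9 (11.1%, against 18.1%). The median day 4 difference was 0.09 over members and 0.04 over all probe sets. These counts lean on single arrays: without the friCol-flc3 day 0 array 3 members passed on day 4 and 1 on day 2, and without the FRISf2-flc3 day 4 array 5 passed on day 4.

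AT4G02800 (12038_at) had the largest rise. It measured 6.12, 6.80 and 6.77 in friCol-FLC, 6.09, 6.71 and 6.59 in friCol-flc3, 6.33, 6.60 and 6.70 in FRISf2-FLC and 6.35, 6.54 and 7.04 in FRISf2-flc3. Day 0 was the lowest array of every genotype, and no day 4 array came down to a day 0 level. The rise was 0.44 ± 0.106 by day 2 (adjusted p = 0.0201) and 0.55 ± 0.106 by day 4 (adjusted p = 0.00307), with no FRI difference called (0.08 ± 0.0869, adjusted p = 0.86). The day 4 call held in 20 of 20 alternative settings, as did those of AT4G01410 and AT4G00780; the day 2 call was lost without any 1 of 5 arrays (friCol-FLC day 0 or 2, friCol-flc3 day 0 or 2, FRISf2-flc3 day 0), with a rise of at least 0.37.

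AT4G01410 (15421_at) was higher on day 4 than on day 0. Its 4 day 0 arrays lay between 6.44 and 6.65, its day 2 arrays between 6.48 and 6.70 and its day 4 arrays between 6.76 and 6.94. The day 4 rise was 0.34 ± 0.0737 (adjusted p = 0.0067), and the difference between day 4 and day 2, 0.26, did not pass (adjusted p = 0.0737). AT4G01780 (16197_s_at) had means of 5.49, 5.50 and 5.83 on the 3 days and a rise of 0.34 ± 0.0856 (adjusted p = 0.0162). The ending _s_at marks a probe set that can match more than 1 transcript, so that value may not be of AT4G01780 alone. The same limit holds for the _s_at probe sets given below for the genes LD and MCM7. AT4G02630 went from 5.24 to 5.57, a rise of 0.33 ± 0.0937 (adjusted p = 0.028), and AT4G02100 from 4.12 to 4.43, a rise of 0.32 ± 0.0832 (adjusted p = 0.0195). Without 1 array the calls of AT4G01780 and AT4G02630 could be lost (friCol-flc3 day 0 or 4, FRISf2-flc3 day 4, and FRISf2-FLC day 0 for AT4G02630), with rises of at least 0.28 and 0.26, and that of AT4G02100 without the day 0 or 4 array of friCol-FLC, friCol-flc3 day 0 or FRISf2-flc3 day 4 (at least 0.26).

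AT4G02200 was measured by a pair of probe sets that both rose in 4 of 4 genotypes, with 0.31 ± 0.0762 for 15040_g_at (adjusted p = 0.0129, and up to 0.0564 without friCol-flc3 day 0 or FRISf2-flc3 day 4) and 0.25 ± 0.0865 for 15039_at, which missed the threshold (adjusted p = 0.0655) and passed without FRISf2-flc3 day 2 or day 4. AT4G01870 had its highest mean on day 2, with means of 5.49, 5.86 and 5.76 and a day 2 rise of 0.37 ± 0.0994 (adjusted p = 0.0341); that call was lost without any of 7 of the 8 arrays of these 2 days, with a rise of at least 0.30. Falls were fewer, and 3 members made them in all 4 genotypes. AT4G00780 is described above. AT4G01130 dropped on day 2, from a mean of 3.89 to 3.32, by -0.57 ± 0.134 (adjusted p = 0.0172). That mean on day 0 includes the 4.61 of friCol-flc3, while the other 3 genotypes lay between 3.63 and 3.68; without that array the fall was -0.41 and missed the threshold (adjusted p = 0.0596), and it also missed without the FRISf2-FLC day 2 array. AT4G00165 had means of 6.13, 6.09 and 5.85 on the 3 days, a day 4 change of -0.28 ± 0.0806 (adjusted p = 0.0291), which was lost without any of 7 of the 8 arrays of days 0 and 4 (-0.24 at the least).

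**Figure D5:**
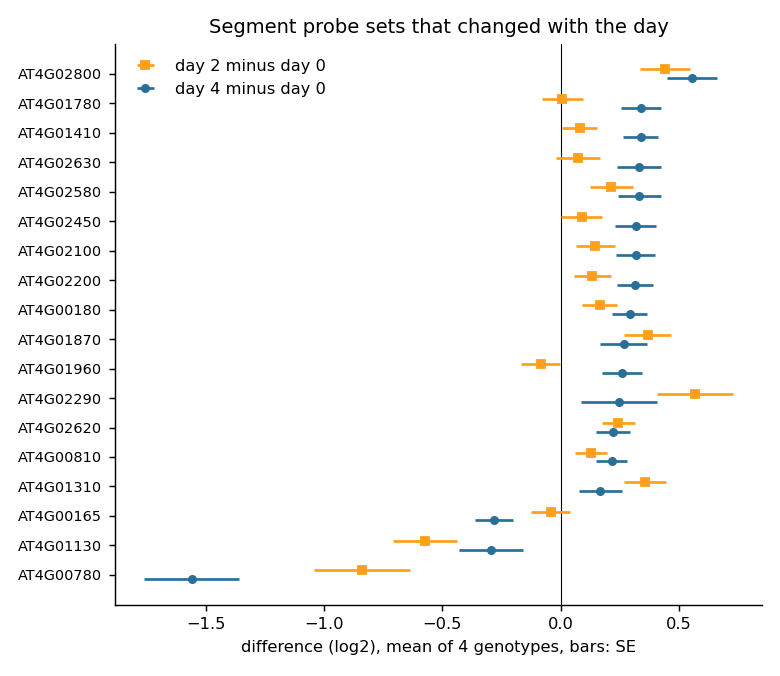
Day 2 and day 4 differences from day 0 (log2, horizontal axis, bars ± SE) for the 18 members called on either day (vertical axis). AT4G00780 lies furthest left at -0.84 and -1.56, and the day 4 points of 15 of the 18 lie to the right of 0.

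Some members had both a day call and a low FRI p-value. Of the 18 called on day 2 or day 4, 7 also had an unadjusted FRI p under 0.05 over both FLC backgrounds. They were AT4G00780, AT4G01130, AT4G01870, AT4G01960, AT4G02100, AT4G02200 and AT4G02450. Of the 63 members without a day call, 17 had such an FRI p, among them AT4G01590, AT4G02360 and AT4G01395. Over all 81 members it was 24 (29.6%). The overlap over all probe sets is not given, so these counts are not read as particular to the members. The other 11 with a day call, AT4G02800 and AT4G01410 among them, did not lie under 0.05 for FRI over both backgrounds. Of these, AT4G01310 and AT4G00165 lay under it without FLC.

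Of the wider FRI and FLC flowering pathway, 2 of 35 genes had a probe set with their name alone, and 1 is a member: LUMINIDEPENDENS (LD), a homeodomain protein of the autonomous pathway that keeps FLC low in Col. Its probe set 17528_s_at measured 6.94, 6.18 and 6.36 in friCol-FLC, 6.34, 6.14 and 6.29 in friCol-flc3, 6.31, 6.14 and 6.13 in FRISf2-FLC and 6.25, 5.93 and 6.38 in FRISf2-flc3. Apart from the high friCol-FLC day 0 array the alleles lay together, and neither the FRI difference of -0.18 ± 0.0931 (adjusted p = 0.629) nor the day 4 difference of -0.17 ± 0.114 (adjusted p = 0.342) passed. The other is GIGANTEA (GI), a clock-linked promoter of flowering in long days from chromosome 1. Its 3 tested probe sets fell by day 4, by -1.39, -1.64 and -1.64, and had no FRI call.

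YABBY3 (YAB3), which helps to set the lower side of lateral organs and is expressed in organ primordia at the apex, had 3 probe sets. The brightest, 14820_g_at, measured 8.83, 9.06 and 9.08 in friCol-FLC, 8.72, 9.04 and 9.18 in friCol-flc3, 8.82, 8.88 and 9.08 in FRISf2-FLC and 9.08, 9.13 and 9.27 in FRISf2-flc3. It rose with day in each genotype, by 0.29 ± 0.0746 on day 4 (adjusted p = 0.0171), a call lost without the day 0 or day 4 array of friCol-flc3, friCol-FLC day 0 or FRISf2-FLC day 4 (at least 0.24, adjusted p up to 0.0824). The second, 17530_at, rose in 4 of 4 genotypes by 0.24 ± 0.104 and missed the threshold (adjusted p = 0.143), and the third, 14819_at, stayed between 2.50 and 2.71, below the filter. Neither tested probe set differed by FRI allele (0.06 and -0.08). Of the flowering, light and chromatin list of 19 genes in the block, 4 genes had probe sets and 4 probe sets were tested. Of these, 1 rose on day 4 and 0 had an unadjusted FRI p under 0.05 over both FLC backgrounds. In the background with FLC, LD lay under it, at -0.30. AT4G02940, the other gene tested, had an FRI difference of 0.05 (adjusted p = 0.905), and NGATHA4 (NGA4), a B3-domain gene, lay below the filter.

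Some of the remaining members were read through lists of function. In the chloroplast list 4 probe sets were tested, 0 of them with an unadjusted FRI p under 0.05 over both FLC backgrounds. Without FLC, AT4G02530 (-0.29) and AT4G01310 (-0.23) lay under it. AT4G01310 rose on day 2 by 0.36 ± 0.0901 (adjusted p = 0.0241), a call lost without friCol-flc3 day 0 or 2 or FRISf2-flc3 day 0 (at least 0.27). TROL, a thylakoid protein that anchors ferredoxin-NADP reductase, had an FRI difference of 0.03 ± 0.0776. Of 3 cell wall members 1 had an FRI p under 0.05, TBL26 of the wall O-acetylation family, at 3.72 to 4.81 over the Col arrays and 3.60 to 3.92 over the Sf-2 arrays. Its difference of -0.35 ± 0.146 did not pass (adjusted p = 0.548) and was -0.19 without the friCol-flc3 day 2 array, its highest at 4.81. GH9B13, a glycosyl hydrolase family 9 endoglucanase gene, rose on day 2 by 0.57 ± 0.161 (adjusted p = 0.0435), in 3 of 4 genotypes, the exception being FRISf2-flc3; the call held in 10 of 19 alternative settings (0.42 to 0.77) and was lost without any 1 of 7 arrays, among them the friCol-FLC array of day 2 (0.42).

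Among 6 defence and stress members, UGT72B1 (GT72B1), a glucosyltransferase that conjugates foreign phenols, was higher with Sf-2 in 5 of 6 pairs by 0.20 ± 0.0725, which did not pass (adjusted p = 0.437). AT4G02450 had an FRI difference of -0.18, which did not pass either (limma adjusted p = 0.501). Unadjusted, both lay under 0.05. With FLC, AT4G01610 also lay under it, at 0.35. The transcription factor genes WRKY22 and WRKY47 differed by -0.05 and 0.00 between FRI alleles, and neither moved past the threshold with day (adjusted p = 0.283 and 0.212 on day 4). AT4G02450 rose by day 4 by 0.32 ± 0.0867 (adjusted p = 0.0236), a call lost without the FRISf2-flc3 day 0 or 4, friCol-FLC day 0 or friCol-flc3 day 0 array (at least 0.23). Of 5 translation and protein turnover members 1 rose by day 4, AT4G00810, by 0.21 ± 0.0674 (adjusted p = 0.0453), while ATSTE24, a membrane protease gene, was 0.19 ± 0.103 above day 0 without passing (adjusted p = 0.226). The vacuolar proton pump subunit gene VHA-F (AT4G02620), the 1 transport member tested, rose by 0.24 ± 0.071 on day 2 (adjusted p = 0.0486) and 0.22 ± 0.071 on day 4 (adjusted p = 0.0495). The calls of AT4G00810 and VHA-F on day 4 sat at the threshold and held in 6 and 5 of 20 alternative settings, with differences of at least 0.17 and 0.19; 11 and 10 of the 12 arrays ended them when left out, and 11 ended the day 2 call of VHA-F. AT4G02580, 1 of 3 metabolism members, rose by day 4 by 0.33 ± 0.0904 (adjusted p = 0.0235), a call lost without any of 6 of the 8 arrays of days 0 and 4 (at least 0.24). MCM7 (PRL), a subunit of the DNA replication helicase and a gene of dividing cells, was measured by 12926_s_at between 8.75 and 9.75 with an FRI difference of -0.20 ± 0.158 (adjusted p = 0.783) and a day 4 difference of -0.09 ± 0.194 (adjusted p = 0.799); its list of 2 also held AT4G01590.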

How the data were processed

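RNA from shoot apices was measured on 12 arrays, 1 per genotype and day. The deposited values are log2 signals between 2.12 and 13.18, a unit read off their range; the authors' software and normalization: not given in the sources used here. Precision is limited by the number of arrays. Of the 8297 probe sets on the array, 50 controls were left out; of the other 8247, 3794 had 1 gene, 70 several and 4383 none. RefSeq's gene table (assembly TAIR10.1) served for names and neighbour order only, and 2 annotated genes were not in it. Coordinates and sequences are not given here.

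Tests covered the 6185 probe sets (2736 with 1 gene) with a mean above the 25th percentile of all means. limma 3.58.1 in R 4.3.3 fitted genotype and day additively (lmFit, contrasts.fit, eBayes with a trend), with 6 residual and 5.93 prior degrees of freedom. Tests were two-sided, with Benjamini-Hochberg adjustment over all 6185 and a threshold of 0.05; a model with FRI by day terms left 4 residual degrees of freedom. The fit was tested on simulated data. Since each group has 1 array, p-values measure the spread that this model leaves.

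The members and lists were chosen with earlier results of these data known. Named were members called for FRI, up to 8 largest differences each way with 1 sign in 6 pairs, up to 8 day rises and 8 falls with 1 sign in 4 genotypes, the flowering list, loci near FRI, and the leading member of each list by function; AT4G01595, AT4G00870, AT4G01070, AT4G01960, AT4G02100, AT4G02489, AT4G02850, the day values of AT4G02200 and the further examples of the lists were chosen after their values were seen. Alternatives were quantile normalization, median centring, other filters, no or robust trend, array weights, other block ends, only the 6 arrays compared, each array left out and, added after the data were seen, the 6 pairs as a block.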

Additional observations from a re-analysis of the deposited data

Results flagged for a closer look

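In 5 of the 81 tested members (6.17%, against 3.8% of all 6185) the FRI difference had one sign in all 3 pairs with FLC and the opposite sign in all 3 pairs without FLC. The difference between backgrounds (with minus without FLC, log2) was 0.46 for AT4G01310, from 0.22 with FLC and -0.23 without, and 0.41 for AT4G00165, from 0.14 and -0.27. It was -0.37 for AT4G01780, from -0.21 and 0.16, -0.27 for AT4G02489, from -0.12 and 0.15, and -0.25 for the YAB3 probe set 14820_g_at, from -0.07 and 0.18. The interaction of FRI and FLC was tested for each and passed for none, with limma adjusted p-values of 0.536, 0.531, 0.663, 0.725 and 0.714 in that order. A group of 3 arrays per genotype is too small for a test of single outlying arrays.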

How the results depend on the processing

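AT4G01590 kept its FRI call and sign in all 20 alternatives that tested it (-2.18 to -1.90), and in 21 of 21 in each FLC background. For FRI over both backgrounds the number of members called (1) was 2 with median centring or no filter, 4 with array weights, 3 with the 6 pairs of arrays that share FLC allele and day as a block (4 residual degrees of freedom, chosen after the data were seen), and 0 with the 50th percentile filter (59 members tested, AT4G01590 not among them) or with the block ended at AT4G00999 (15 tested); leaving out 1 array gave 1 to 3, with 3 without friCol-flc3 day 0 or day 4 and 2 without friCol-flc3 day 2 or FRISf2-flc3 day 2. With FLC it was 2 with no filter or only the 6 arrays compared and 0 with the 50th percentile filter or the shorter block, and leaving out 1 array gave 1 to 2 (2 without friCol-flc3 day 2 or day 4). Without FLC the same 4 settings gave 2, 2, 0 and 0, and leaving out 1 array gave 1 throughout. The interaction and the FLC difference stayed at 0 in each setting run. Of 24 members under an unadjusted 0.05 (a count chosen after the data were seen), 13 were left with the 50th percentile filter and 6 of 15 in the shorter block, and leaving out 1 array gave 16 to 28. Members without overlap (4) were 2 with quantile normalization or the 50th percentile filter and 1 in the shorter block; those with 1 sign in 6 pairs (14) were 9 and 5 with that filter and block. The 7 calls on day 2 became 12 with array weights and 1 in the shorter block; leaving out 1 array gave 1 to 7, with 1 for the friCol-flc3 array of day 0, 2 for that day's friCol-FLC or FRISf2-flc3 array, and 4 without any of the 4 day 2 arrays or FRISf2-FLC day 0. The 14 on day 4 became 4 in the shorter block; leaving out 1 array gave 3 to 17, with the lowest at 3 for the friCol-flc3 array of day 0, 5 for FRISf2-flc3 of day 4, 7 for friCol-FLC of day 0 and friCol-flc3 of day 4, 8 for FRISf2-FLC of day 0, and 9 for the day 4 arrays of friCol-FLC and FRISf2-FLC. The 1 call between day 2 and day 4 became 2 with median centring, the 50th percentile filter or a robust trend, 3 with the block ended at AT4G05999, and 0 with quantile normalization, no filter, the shorter block or 9 of the 12 single arrays left out (0 to 1). Except where fewer probe sets or arrays were tested, the cause was not tested. Shares of all probe sets are given above for the pair block over both FLC backgrounds. They are also given for unadjusted and overlap counts without the FRISf2-flc3 day 2 array. For the other settings they are not given, so a change in a member count may not be particular to the members. No called value of a named probe set changed sign; 18 of 91 named results had another sign in 1 or more alternatives, and those were called in none. The pair block left the counts with FLC, without FLC and for the interaction at 1, 1 and 0. Replicate numbers gave no pairs, since each group holds 1 array.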
